A study of Arabidopsis thaliana with 15 samples.

Results

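The genes described here are those of the Arabidopsis thaliana plastid genome that a probe set measured alone. They were found by their plastid locus tags among all genes with a probe set annotated to 1 gene, which gave 63 plastid-encoded genes out of 16550 genes. None of the 63 had more than 1 such probe set. By symbol prefix they comprise 5 photosystem I genes (psa), 13 photosystem II genes (psb), 6 cytochrome b6f genes (pet), 4 ATP synthase genes (atp), 10 NDH complex genes (ndh), 7 and 6 ribosomal protein genes of the small and large subunit (rps and rpl), 4 RNA polymerase genes (rpo) and 8 others. A further 13 plastid symbols were measured only on probe sets shared by several plastid genes.

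The arrays hold hypocotyl RNA of Col-0, the common laboratory ecotype, with no transgene or mutation named in any group. All plants had spent 6 weeks in short days (8 h of light) at 22 °C. They were then moved to long days (16 h of light), which induces flowering, and hypocotyls were taken on days 0, 1, 2, 4 and 10 after the move, with 3 replicates per day that are each a pool of 8 plants. Day 0 plants are the only reference, no short-day plants of a later age are among the samples, and the labels give neither the hour of harvest nor a batch, so age, hour and day length cannot be told apart.

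The plastid genome of land plants keeps genes for the photosynthetic complexes of the thylakoid membrane, for the plastid ribosome and for the core of a bacterial-type RNA polymerase, while the nucleus encodes the remaining subunits. Most plastid genes are transcribed as polycistronic units, in which several genes share a primary transcript that is then cut, spliced and stabilised by nuclear-encoded RNA-binding proteins. The bacterial-type polymerase transcribes chiefly photosynthesis genes, whereas a phage-type polymerase of nuclear origin transcribes housekeeping genes such as the rpoB unit and accD. In the hypocotyl, chloroplasts lie mainly in the green outer cells, around the wood that thickens as the plant flowers.

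The plastid-encoded genes were among the brightest features of the arrays. Their mean log2 intensity had a median of 12.4, against 6.43 over all 38408 probe sets, and 62 of the 63 lay above the 90th percentile of signal. The spread between pools of the same day was narrow, with a median residual SD of 0.0525 on the log2 scale, against 0.175 over all probe sets. The labels do not say how the biotinylated cDNA was primed, and whether saturation of bright probes compresses differences was not tested. The highest intensity in the table was 20879.5, and the highest mean intensity of a plastid-encoded gene was 13707.

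Of the tissue markers, 3 of 9 secondary xylem genes could be matched (IRX10, IRX15 and IRX15L), 2 of 10 green-tissue genes (RCA and LHCB4.1), 2 of 3 root hair genes (EXPA7 and EXPA18, at mean log2 intensities of 4.2 to 4.4 by day) and 0 of 4 phloem genes. IRX10, a xylan synthesis gene of wood, was higher on day 10 than on day 0 by 1.73 ± 0.077 log2 units (SE, n = 3 pools each), and RCA, which encodes Rubisco activase, fell by 1.22 ± 0.093. The summed intensity of the 3 xylem genes was 4058 to 4323 in the day 10 pools, against 1730 to 1831 in the day 0 pools, and that of the 2 green-tissue genes 667 to 718 on day 10, against 1263 to 1374 on day 0. The part of this shift in the changes of plastid-encoded genes was not tested. Arrays of the same day correlated at 0.983 to 0.990 and no array stood apart. In whole hypocotyls, fewer plastids or green cells and less RNA in each of them cannot be told apart.

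The plastid-encoded genes moved within narrow limits over the 10 days. The range of the 5 day means had a median of 0.229 log2 units over the 63 genes, against 0.467 over all probe sets, most of them dimmer. For 15 mitochondrial genes of like brightness (median log2 intensity 12.7) it was 0.217, so a narrow range was not particular to the plastid. Among the 63 genes the range was narrowest for rpl14, a protein of the large ribosomal subunit, at 0.047. It was widest for petN, a small subunit of the cytochrome b6f complex, at 0.803. None of the 63 genes had a range of 1 log2 unit, which 12.4% of all probe sets reached. The moderated F test of limma over the 5 days called 33 of the 63 genes (52.4%) at an adjusted p below 0.05, where it called 41.5% of all probe sets. The p-values describe these pools only, and 3 pools a day limit the precision. They rest on a spread per gene that limma draws towards the wider spread of all probe sets.

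**Figure D1:**
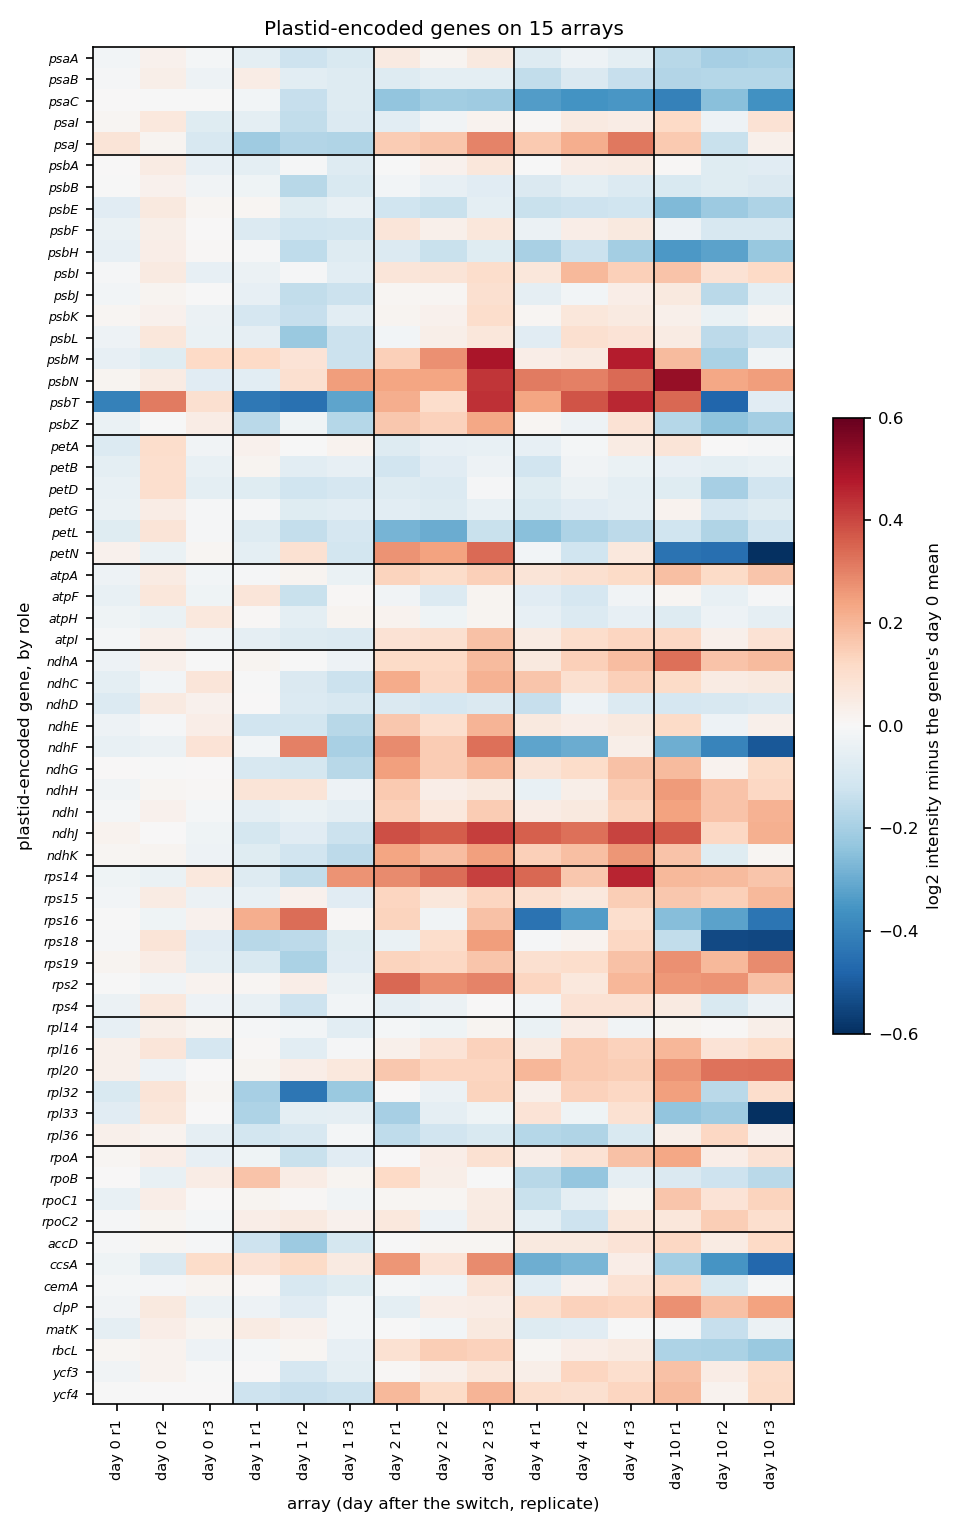
Log2 intensity of 63 plastid-encoded genes (rows, grouped by role) on 15 arrays (columns, by day and replicate), minus each gene's day 0 mean. Red is above and blue below the day 0 mean, and colours saturate at 0.6 log2 units; the ndhJ row is red from day 2 onwards, the petN row is red on day 2 and blue on day 10, and the psaC row is blue from day 2 onwards.

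By role, the F test called 3 of 5 psa genes, 4 of 13 psb genes, 1 of 6 pet genes, 1 of 4 atp genes, 8 of 10 ndh genes, 6 of 7 rps genes, 4 of 6 rpl genes, 1 of 4 rpo genes and 5 of 8 others. It called 41.5% of all probe sets. The shares of the psb (30.8%), pet (16.7%), atp (25%) and rpo (25%) genes lay below this, and those of the other groups above it. The groups are small, and differences between them were not tested. Signal level differed between called and other genes. Of the 32 brighter genes the F test called 10, with a median range of 0.158 log2 units, and of the 31 dimmer genes it called 23, with a median range of 0.322. The psb and pet genes had median log2 intensities of 12.9 and 12.8, the ndh and rps genes 11.9 and 11.9, and the rpo genes 11.5. The part of signal level in the difference between roles was not tested.

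On day 1 no plastid-encoded gene passed the contrast test against day 0, where 4.88% of all probe sets did (2.39% higher and 2.49% lower). An unadjusted limma p below 0.05 was seen for 5 of the 63, and for 6075 of all 38408 probe sets. A trended robust prior called 1 of the 63, and its share over all probe sets is not given here. The day 1 mean lay below the day 0 mean for 49 of the 63 genes, with a median log2 difference of -0.05, against 0.01 over all probe sets. After each array was centred on its median, this count was 36 of 63. The 3 day 1 pools lay wholly below the 3 day 0 pools for 21 genes and wholly above them for 1, 22 of 63 in all. Over all probe sets such separation was seen in 22% (11% lower and 11% higher). Day 1 held the lowest of the 5 day means for 31 genes (49.2%), where it did so for 17.0% of all probe sets. With centred arrays it held the lowest mean for 25 genes.

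Day 2 followed with a small rise. Against day 1, 13 genes were higher (20.6%) and 0 lower, where 14.9% of all probe sets were called, 7.39% higher and 7.51% lower. The 3 day 2 pools lay wholly above the 3 day 1 pools for 34 genes and wholly below them for 2. Over all probe sets 32.1% were separated, 15.4% above and 16.7% below. The median log2 difference was 0.12 over the 63 genes, against -0.02 over all probe sets. The 13 genes were psaJ, psbT, psbZ, petN, atpI, ndhC, ndhE, ndhG, ndhJ, ndhK, rps2, rps19 and ycf4, with rises of 0.19 to 0.65 log2 units. Against day 0, 8 genes were higher on day 2 (psbN, petN, ndhC, ndhG, ndhJ, ndhK, rps2 and rps14) and 2 lower (psaC and petL), together 15.9% of the 63, where 20.4% of all probe sets passed (10% higher and 10.3% lower). The comparisons of day 2 with days 0 and 1 share the day 2 pools, and all comparisons with day 0 share its pools. Pools of a day also differed together across the 63 genes, and replicate 3 of day 2 was the highest of its day for 49. Counts of genes on days 1 and 2 thus rest on 3 pools a day, and the genes are not separate observations.

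The count against day 0 depended on scaling, on the prior of the limma fit (given further below) and on single pools. It was 19 higher and 0 lower with arrays centred on their medians and 4 higher and 2 lower after cyclic loess. It was 3 to 5 without any 1 of the 3 pools of day 0 or of day 2. Leaving out any pool in turn gave 10 to 14 calls for day 2 against day 1.

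On day 4, 4 genes were higher than on day 0 (psbN, ndhJ, rps14 and rpl20) and 2 lower (psaC and petL), 9.52% of the 63, where 25.7% of all probe sets passed (11.5% higher and 14.2% lower). A trended robust prior, which lets the expected spread follow signal level, called more of the 63, as given further below. Its share over all probe sets is not given here. With centred arrays the split was 20 higher and 1 lower. The count was 2 to 4 without any 1 of the 3 pools of day 0 or of day 4. Between day 4 and day 2, petN alone was called, lower on day 4, which is 1.59% of the 63 genes, where 5.42% of all probe sets passed (2.07% higher and 3.35% lower). That call was lost with centred arrays, after loess, with the replicate number in the model and when 13 of the 15 pools were left out singly.

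On day 10, 22 of the 63 genes differed from day 0 (34.9%), where 28.8% of all probe sets did, so the share lay near the background. Of these, 10 were higher (background 14.8%) and 12 lower (background 14%), and the median log2 difference was 0.01, the same as over all probe sets. The fall reached petN at -0.52, and the rise reached psbN at 0.34. With centred arrays the split was 12 higher and 9 lower. The count was 14 without replicate 3 of day 0 or replicate 3 of day 10, and 16 to 22 without each of the other pools. The day 10 pools lay wholly above the day 0 pools for 20 genes and wholly below them for 18, 38 of 63 in all. Over all 38408 probe sets such separation was seen in 15929 (8242 above and 7687 below), so it is common and no mark of change by itself.

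Between day 10 and day 4, 7 genes passed (11.1%), where 17.1% of all probe sets did (9.41% higher and 7.7% lower). Lower on day 10 were psbZ, petN, rps18, rpl33 and rbcL, and higher were rpl36 and rpoC1. With centred arrays the split was 0 higher and 6 lower. The count was 3 without replicate 2 of day 10 or replicate 1 of day 4 and 4 without replicate 3 of day 10.

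**Figure D2:**
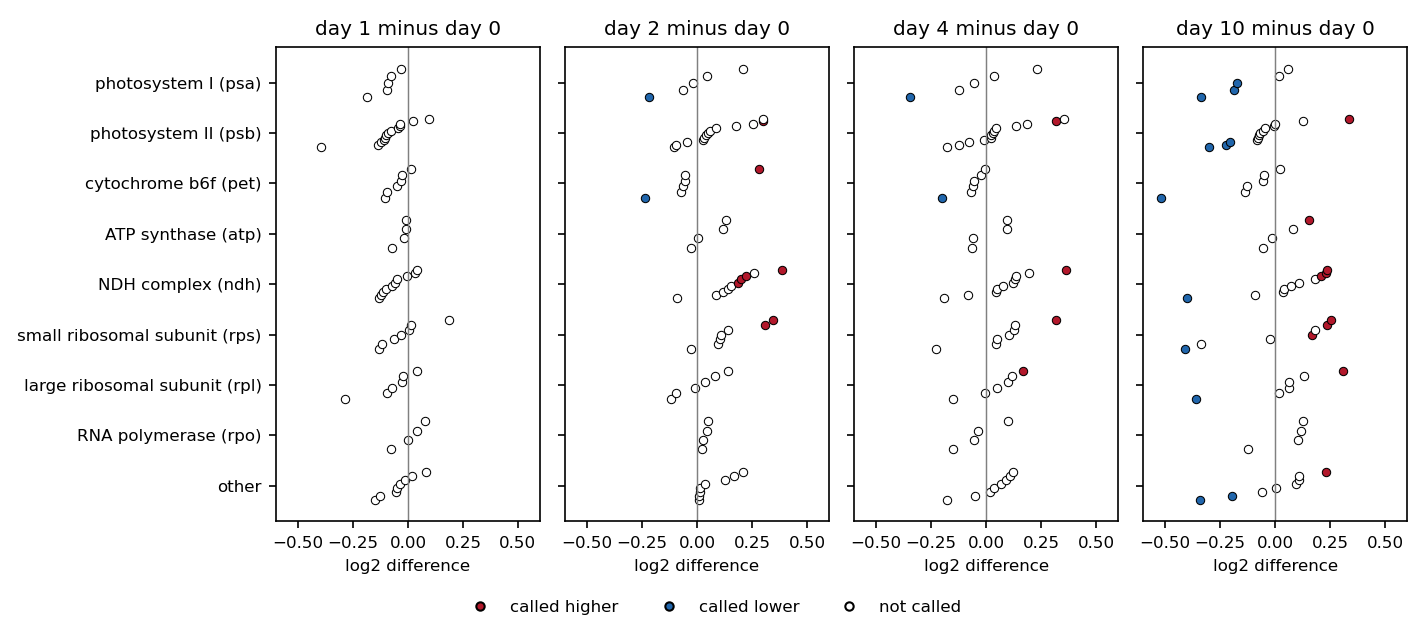
Log2 differences from day 0 of 63 plastid-encoded genes (points) by role, for days 1, 2, 4 and 10. Filled points passed limma's test at an adjusted p below 0.05 (red higher, blue lower), and on day 1 all points are open. On day 10 the psa genes hold 3 blue points and 0 red, and the psb genes 3 blue and 1 red. The ndh genes hold 3 red and 1 blue, and the rps genes 3 red and 1 blue. Of all probe sets, 14.8% were called higher and 14% lower on day 10.

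Across the 7 comparisons there were 59 calls on 34 genes. Of these calls, 13 held under every scaling, with the replicate number in the model, without every pool in turn and when a pair of days was fitted from its own 6 arrays. The last setting, which has fewer pools to estimate the spread, lost 41 calls, and leaving out single pools lost 33. Where losses are named for single genes below, they are not always all the losses of that call. No call changed direction. The 13 calls belong to psaC, psaJ, psbH, petN, ndhG, ndhJ, ndhK, rps2 and rpl20.

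Among the photosystem I genes, the reaction centre core psaA and psaB and the iron-sulphur subunit psaC were lower on day 10 than on day 0, while the small subunits psaI and psaJ were not called. psaC (ArthCp075) stood at 12.76, 12.75 and 12.75 on the log2 intensity scale in the day 0 pools, 12.74, 12.61 and 12.68 on day 1, 12.52, 12.54 and 12.54 on day 2, 12.42, 12.39 and 12.41 on day 4, and 12.34, 12.50 and 12.39 on day 10. Every pool of days 2, 4 and 10 lay below every pool of day 0. psaC, which carries the terminal iron-sulphur clusters of the photosystem, fell by 0.35 ± 0.057 log2 units on day 4 (SE, adjusted p = 0.000825) and by 0.34 ± 0.057 on day 10 (adjusted p = 0.000687), a level 21.0% below day 0. Its fall of 0.22 on day 2 was not called with centred arrays.

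psaA stood at 13.02, 12.99 and 12.99 in the day 10 pools, against 13.17, 13.21 and 13.17 in the day 0 pools, on the log2 intensity scale. The day 10 pools all lay below the day 0 pools, and the difference was -0.19 ± 0.049 (SE, adjusted p = 0.013). Without replicate 2 of day 0 the adjusted p was 0.0503, and with only the 6 arrays compared it was 0.103. psaB differed by -0.17, and this call was lost with centred arrays, after loess and when 5 of the 6 pools compared were left out singly.

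psaJ (ArthCp042), a small membrane subunit that lies at the edge of photosystem I, had its lowest pools on day 1 and was higher on day 2. It stood at 12.07, 12.08 and 12.21 in the day 2 pools, against 11.70, 11.74 and 11.73 in the day 1 pools, on the log2 intensity scale. The day 2 pools all lay above the day 1 pools, by 0.40 ± 0.082 log2 units (SE, adjusted p = 0.0072). psaI, another small membrane subunit, kept its 5 day means within 0.155 log2 units and passed no test.

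Of the 13 photosystem II genes, 3 were lower on day 10 than on day 0, 1 was higher and 9 passed neither way, a share of 30.8% called, near the 28.8% of all probe sets. psbH (ArthCp052), a phosphoprotein subunit of the core, was at 12.93, 12.95 and 13.04 in the day 10 pools, against 13.23, 13.31 and 13.28 in the day 0 pools, on the log2 intensity scale. All 3 day 10 pools were below all 3 day 0 pools, and psbH fell by 0.30 ± 0.060 log2 units (SE, adjusted p = 0.0024). psbE, which encodes a subunit of cytochrome b559, differed by -0.22 (adjusted p = 0.0093), a call lost with only the 6 arrays compared.

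psbZ, a small subunit of the core, was highest on day 2 and lowest on day 10. It stood at 12.05, 12.09 and 12.13 on the log2 intensity scale in the day 0 pools, 11.93, 12.06 and 11.91 on day 1, 12.25, 12.23 and 12.32 on day 2, 12.10, 12.06 and 12.17 on day 4, and 11.91, 11.85 and 11.89 on day 10. The day 2 pools lay above those of all other days, and psbZ was 0.30 ± 0.062 log2 units higher on day 2 than on day 1 (SE, adjusted p = 0.0068). This call was lost only with the 6 arrays compared. The psbZ difference of -0.21 between day 10 and day 0 was lost with centred arrays and with only the 6 arrays compared. It was also lost without replicate 2 or 3 of either day (adjusted p up to 0.0835).

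psbN (ArthCp051), a gene needed for assembly of photosystem II that lies within the psbB unit on the opposite strand, was higher than on day 0 on days 2, 4 and 10. It stood at 10.00, 10.04 and 9.92 in the day 0 pools, 9.92, 10.08 and 10.24 on day 1, 10.22, 10.22 and 10.41 on day 2, 10.30, 10.29 and 10.33 on day 4, and 10.51, 10.22 and 10.24 on day 10, on the log2 intensity scale. Every pool from day 2 onwards lay above the day 0 pools, while the day 1 pools overlapped them. The differences were 0.30, 0.32 and 0.34 log2 units with SE 0.098, and all 3 calls were lost without replicate 3 of day 0 (adjusted p up to 0.172 over the pools left out). The sources used here do not say whether its probes tell the strands apart.

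psbA, which encodes the D1 protein that is replaced after light damage, had the narrowest range of day means among the psb genes. It stood at 13.74, 13.66 and 13.66 in the day 10 pools, against 13.73, 13.78 and 13.68 in the day 0 pools, on the log2 intensity scale, and its 5 day means spanned 0.079 log2 units. No comparison of psbA passed. psbT, a small core subunit, had the widest range among the psb genes at 0.751 log2 units, with day 0 pools as far apart as 9.66 and 10.38. Its call between days 2 and 1 was lost when 11 of the 15 pools were left out singly.

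The other 7 psb genes passed in no comparison. psbB, the core antenna protein CP47, differed by -0.08 log2 units on day 10, and psbF, the partner of psbE in cytochrome b559, by -0.07. The small subunits psbI, psbJ, psbK and psbL kept their day means within 0.148 to 0.171 log2 units. psbM, another small subunit, had the lowest signal of the 63 genes, at a mean log2 intensity of 9.15, and its pools stood at 9.19, 9.32 and 9.54 on day 2, against 9.00, 8.98 and 9.17 on day 0.

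The cytochrome b6f genes were steady except for petN and petL, both small subunits of the complex. petN (ArthCp015) stood at 11.97, 11.91 and 11.96 on the log2 intensity scale in the day 0 pools, 11.88, 12.04 and 11.83 on day 1, 12.21, 12.19 and 12.29 on day 2, 11.93, 11.83 and 12.01 on day 4, and 11.50, 11.49 and 11.28 on day 10. The day 2 pools lay above, and the day 10 pools below, every pool of every other day. On day 10 petN fell by 0.52 ± 0.080 log2 units relative to day 0 (SE, adjusted p = 0.000346), a linear ratio of 1.43 between day 0 and day 10, and it differed by -0.50 ± 0.080 from day 4 (adjusted p = 0.0012). Its rise of 0.28 log2 units on day 2 was lost without replicate 2 or 3 of day 0 or replicate 1 or 3 of day 2 (adjusted p up to 0.0856).

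petL stood at 12.70, 12.68 and 12.85 in the day 2 pools, against 12.91, 13.06 and 12.98 in the day 0 pools, on the log2 intensity scale. The day 2 pools lay below the day 0 pools, with a log2 difference of -0.24 ± 0.065 (SE, adjusted p = 0.021). This call was lost with centred arrays and with only the 6 arrays compared. It was also lost without replicate 2 or 3 of day 0 or replicate 1 or 2 of day 2 (adjusted p up to 0.0909). petB and petD, which encode the cytochrome b6 and subunit IV core of the complex, differed on day 10 by -0.05 and -0.13 log2 units and passed in no comparison. petA, the cytochrome f gene, and petG, a small subunit, also passed in none, with day means within 0.080 and 0.070 log2 units.

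The 4 ATP synthase genes kept their day means within 0.063 to 0.190 log2 units. atpA, the catalytic sector's alpha subunit, was at 12.98, 12.91 and 12.96 in the day 10 pools, against 12.77, 12.85 and 12.78 in the day 0 pools, on the log2 intensity scale. The pools did not overlap and the difference was 0.15 ± 0.051 (SE, adjusted p = 0.038), a call lost with the replicate number in the model and without replicate 1 or 3 of day 0 (adjusted p up to 0.109). atpI, a membrane subunit, was 0.19 log2 units higher on day 2 than on day 1, a call lost after loess, with the replicate number in the model and without any of the 6 pools compared (adjusted p up to 0.121). atpH and atpF, the ring and a stator subunit, passed in no comparison.

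The NDH genes encode subunits of a thylakoid complex that returns electrons to the plastoquinone pool around photosystem I. On day 2, 4 of the 10 were higher than on day 0, where 10% of all probe sets were, and 5 of the 10 were higher than on day 1, where 7.39% were. The median log2 difference of the 10 ndh genes was 0.17 between days 2 and 0 and 0.24 between days 2 and 1, and 9 of the 10 differences were positive in each, a count that was the same with centred arrays and after loess. Of all 63 genes, 46 and 48 had positive differences in these comparisons, so this lean was not particular to the ndh genes. It was 6 of 7 rps genes in each, and 1 and 2 of 6 pet genes. Over all 38408 probe sets, 18733 and 18243 were positive. On day 10, 3 ndh genes were higher than on day 0 (ndhA, ndhI and ndhJ), where 14.8% of all probe sets were, and 1 was lower, where 14% were.

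ndhJ (ArthCp025) stood at 11.81, 11.79 and 11.76 on the log2 intensity scale in the day 0 pools, 11.68, 11.72 and 11.66 on day 1, 12.17, 12.15 and 12.20 on day 2, 12.14, 12.12 and 12.19 on day 4, and 12.15, 11.91 and 12.00 on day 10. The day 1 pools lay below all others and every pool from day 2 onwards lay above those of day 0. ndhJ, a subunit of the arm that projects into the stroma, was higher than on day 0 by 0.39 ± 0.064 log2 units on day 2 (SE, adjusted p = 0.0012) and by 0.36 ± 0.064 on day 4 (adjusted p = 0.0013). It exceeded day 1 on day 2 by 0.49 ± 0.064 (adjusted p = 0.00055), a ratio of 1.41 on the linear scale. Its rise of 0.23 on day 10 was lost without replicate 1 of day 10 or replicate 3 of day 0 (adjusted p up to 0.0617).

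ndhK (ArthCp026), which carries an iron-sulphur cluster of the same arm, stood at 11.70, 11.65 and 11.71 in the day 2 pools, against 11.39, 11.35 and 11.31 in the day 1 pools, on the log2 intensity scale. ndhG (ArthCp077), a membrane subunit, stood at 11.84, 11.75 and 11.80 on day 2, against 11.50, 11.49 and 11.43 on day 1. For both genes the day 2 pools lay above the day 1 pools. The differences were 0.34 ± 0.068 for ndhK (SE, adjusted p = 0.0058) and 0.32 ± 0.060 for ndhG (SE, adjusted p = 0.0039). Their smaller rises over day 0, 0.22 for ndhK and 0.20 for ndhG, were lost with the replicate number in the model and without any of the 3 day 0 pools.

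ndhF, a large membrane subunit that lies apart from the other ndh genes, was the ndh gene lower on day 10. It stood at 10.49, 10.39 and 10.28 in the day 10 pools, against 10.74, 10.75 and 10.87 in the day 0 pools, on the log2 intensity scale. The pools did not overlap and ndhF fell by 0.40 ± 0.127 log2 units (SE, adjusted p = 0.033). This call was lost with centred arrays and with the replicate number in the model. It was also lost without any day 0 pool or replicate 2 or 3 of day 10 (adjusted p up to 0.112). ndhH, a stromal subunit, differed by 0.18 on day 10 with an adjusted p of 0.061. ndhD, another membrane subunit, spanned 0.093 log2 units over the 5 day means and passed in no comparison.

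rbcL (ArthCp030), which encodes the large subunit of Rubisco, the enzyme of carbon fixation, was lower on day 10. It stood at 13.01, 13.02 and 12.97 on the log2 intensity scale in the day 0 pools, 12.99, 13.01 and 12.95 on day 1, 13.09, 13.14 and 13.14 on day 2, 13.01, 13.04 and 13.05 on day 4, and 12.81, 12.81 and 12.77 on day 10. The day 10 pools lay below, and the day 2 pools above, every other pool. Against day 0, rbcL fell by 0.20 ± 0.050 log2 units on day 10 (SE, adjusted p = 0.0095), 12.8% on the linear scale, a call lost only with the 6 arrays compared.

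**Figure D3:**
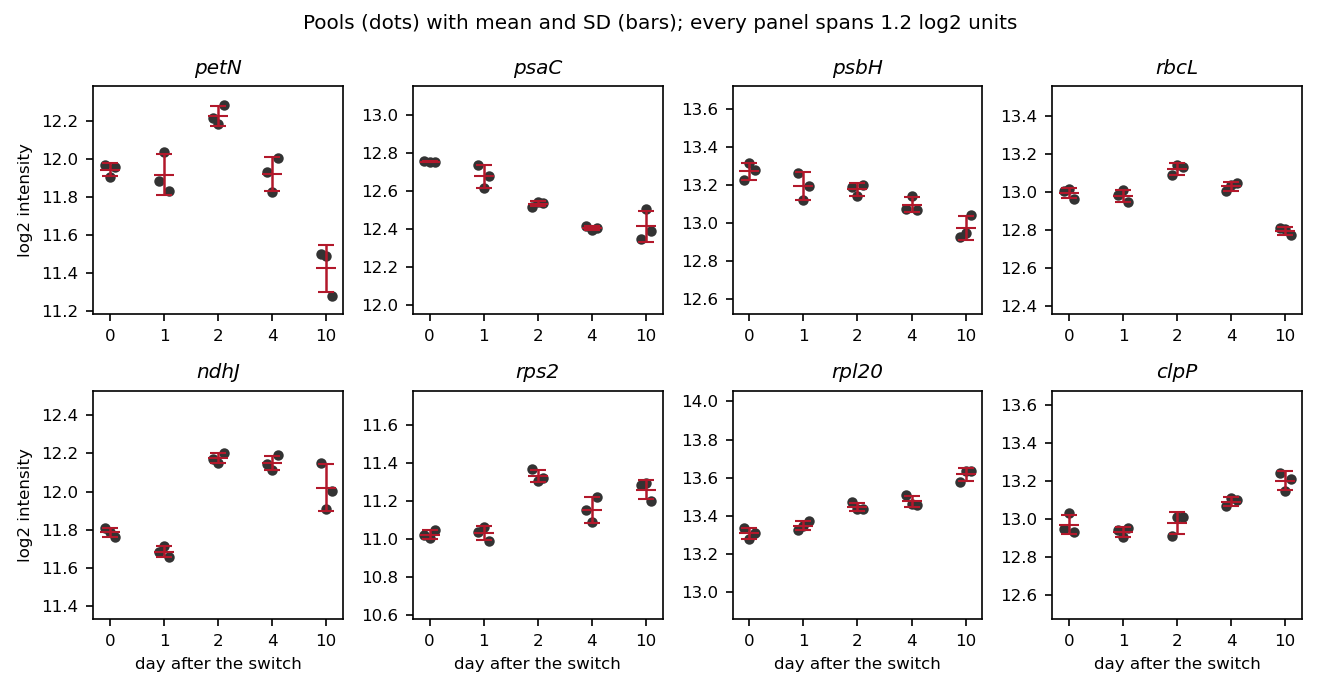
Log2 intensity of 8 plastid-encoded genes in every pool (dots) with the day mean and SD (bars, n = 3) on days 0, 1, 2, 4 and 10. Every panel spans the same 1.2 log2 units; petN, psaC, psbH and rbcL end lower on day 10 than on day 0, and ndhJ, rps2, rpl20 and clpP end higher.

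Ribosomal protein genes moved both ways. Of the 7 rps genes, 3 were higher on day 10 than on day 0 and 1 lower, and of the 6 rpl genes 1 was higher and 1 lower. The shares called were 57.1% of the rps genes and 33.3% of the rpl genes, the second near the 28.8% of all probe sets. rps2 (ArthCp011), a small-subunit protein, stood at 11.02, 11.00 and 11.05 on the log2 intensity scale in the day 0 pools, 11.04, 11.06 and 10.99 on day 1, 11.37, 11.30 and 11.32 on day 2, 11.15, 11.09 and 11.22 on day 4, and 11.29, 11.29 and 11.20 on day 10. The pools of days 2, 4 and 10 lay above those of days 0 and 1. rps2 was 0.31 ± 0.056 log2 units higher on day 2 than on day 0 (SE, adjusted p = 0.0023) and 0.24 ± 0.056 higher on day 10 (adjusted p = 0.0071). The day 10 call was lost only with the 6 arrays compared.

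rps19, also of the small subunit, stood at 12.48, 12.40 and 12.49 in the day 10 pools, against 12.22, 12.25 and 12.15 in the day 0 pools, on the log2 intensity scale, without overlap. The difference was 0.25 ± 0.059 (SE, adjusted p = 0.0060), a call lost only with the 6 arrays compared. rps18 went the other way, at 10.95, 10.56 and 10.56 in the day 10 pools, against 11.09, 11.18 and 11.03 in the day 0 pools. The day 10 pools lay below the day 0 pools but were themselves far apart. rps18 fell by 0.41 ± 0.108 log2 units (SE, adjusted p = 0.012), and the adjusted p was up to 0.0545 without replicate 2 or 3 of day 10. rps15 was higher on day 10 by 0.17. That call was lost with the replicate number in the model and with only the 6 arrays compared. It was also lost without replicate 1 or 3 of day 0 or any of the 3 day 10 pools (adjusted p up to 0.116). rps4 passed in no comparison, with day means within 0.113 log2 units.

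rps16, another small-subunit gene, was called by the F test alone. It stood at 9.74, 9.68 and 9.56 in the day 10 pools, against 10.00, 9.97 and 10.03 in the day 0 pools, on the log2 intensity scale. The day 10 pools all lay below the day 0 pools, with a log2 difference of -0.34 and an adjusted p of 0.069.

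rpl20 (ArthCp045), a large-subunit protein, stood at 13.34, 13.28 and 13.31 on the log2 intensity scale in the day 0 pools, 13.32, 13.34 and 13.37 on day 1, 13.47, 13.44 and 13.44 on day 2, 13.51, 13.46 and 13.45 on day 4, and 13.58, 13.63 and 13.64 on day 10. The day 10 pools lay above all others, and the pools of days 2 and 4 above those of days 0 and 1. rpl20 was higher on day 10 than on day 0 by 0.31 ± 0.050 log2 units (SE, adjusted p = 0.00051), a rise of 23.9% on the linear scale. Its rise of 0.17 on day 4 was lost after loess and with only the 6 arrays compared. That call was also lost without replicate 2 or 3 of day 0 or any day 4 pool (adjusted p up to 0.0947).

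rpl33, of the same subunit, stood at 10.66, 10.68 and 10.26 in the day 10 pools, against 10.83, 10.96 and 10.90 in the day 0 pools, on the log2 intensity scale. The pools did not overlap, and rpl33 fell by 0.36 ± 0.104 log2 units (SE, adjusted p = 0.021), a call lost without replicate 3 of day 10 or replicate 2 or 3 of day 0 (adjusted p up to 0.0730). rpl36 was called between days 10 and 4 only, higher by 0.21 log2 units, a call lost with centred arrays. rpl32, called by the F test alone, stood at 11.31, 11.08 and 11.29 on day 1, below the 11.42, 11.59 and 11.53 of day 0. rpl16 passed in no comparison, and rpl14 stood between 13.42 and 13.52 on all 15 arrays.

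None of the 4 core subunit genes of the plastid RNA polymerase passed a comparison with day 0, and rpoB alone was called by the F test (limma adjusted p = 0.042). On day 10 their log2 differences from day 0 were 0.12 for rpoA, -0.12 for rpoB, 0.13 for rpoC1 and 0.11 for rpoC2. rpoB, the beta subunit, stood at 11.31, 11.28 and 11.24 in the day 10 pools, against 11.40, 11.36 and 11.44 in the day 0 pools, on the log2 intensity scale, below them without overlap. rpoC1 stood at 11.54, 11.46 and 11.51 on day 10, against 11.33, 11.42 and 11.38 on day 0, above them without overlap. The adjusted p of these 2 differences was 0.20 for rpoB and 0.12 for rpoC1. rpoC1 was called between days 10 and 4, higher by 0.18 log2 units, and that call was lost with centred arrays and when 13 of the 15 pools were left out singly.

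Among the remaining genes, clpP (ArthCp048), a subunit of the plastid's ATP-dependent protease, was higher on day 10. It stood at 13.25, 13.15 and 13.21 in the day 10 pools, against 12.95, 13.03 and 12.94 in the day 0 pools, on the log2 intensity scale, above them without overlap. The difference was 0.23 ± 0.056 (SE, adjusted p = 0.0081), lost only with the 6 arrays compared. accD (ArthCp031), a subunit of the acetyl-CoA carboxylase that starts fatty acid synthesis, was called by the F test alone. Its pools stood at 12.35, 12.26 and 12.37 on day 1, below the 12.46, 12.49 and 12.47 of day 0, with a log2 difference of -0.15 and an adjusted p of 0.158.

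ccsA, needed to attach haem to c-type cytochromes, stood at 10.46, 10.31 and 10.19 in the day 10 pools, against 10.64, 10.58 and 10.78 in the day 0 pools, on the log2 intensity scale. The pools did not overlap, and ccsA fell by 0.34 ± 0.103 log2 units (SE, adjusted p = 0.025), a call lost without replicate 1 or 3 of day 0 or replicate 2 or 3 of day 10 (adjusted p up to 0.101). ycf4, an assembly factor of photosystem I, was 0.30 ± 0.056 higher on day 2 than on day 1 (SE, adjusted p = 0.0042), with pools at 12.48, 12.40 and 12.50 on day 2, against 12.17, 12.15 and 12.16 on day 1. The call of ycf4 was lost only with the 6 arrays compared. matK, the intron maturase, cemA, an envelope membrane protein, and ycf3, an assembly factor of photosystem I, passed in no comparison.

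The values by transcription unit follow; differences between the genes of a unit were not tested. In the ndhC-ndhK-ndhJ unit all 3 genes were higher on day 2 than on day 0, by 0.19 to 0.39 log2 units, and than on day 1, by 0.26 to 0.49. The call of ndhC against day 0 was lost after loess, with the replicate number in the model and when 13 of the 15 pools were left out singly. In the rpl33-rps18 unit both genes were lower on day 10, with log2 differences of -0.36 and -0.41, while on day 2 rpl33 differed from day 0 by -0.09 and rps18 by 0.10, neither called. clpP and rpl20, which share a unit with rps12, were both higher on day 10, by 0.23 and 0.31, and on day 1 their differences were -0.04 and 0.04, neither called. In the S10 unit of ribosomal protein genes with rpoA, all 5 genes measured singly had positive differences on day 10. They were 0.02 to 0.25 log2 units, and rps19 alone was called. On days 2 and 4, 3 of the 5 differences were positive and 2 negative. On shared probe sets, rpl23 differed by -0.15 on day 10, not called, rpl2 by 0.22, called, and rps3 with rpl22 by 0.17, not called. The rpl23 differences from day 0 were -0.17 on day 2 (limma adjusted p = 0.036) and -0.16 on day 4 (limma adjusted p = 0.042), both called lower.

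In the psaA-psaB-rps14 unit, psaA and psaB were lower on day 10, when rps14, a small-subunit protein, differed by 0.18 and was not called. rps14 was higher than on day 0 by 0.34 on day 2 and 0.32 on day 4, when psaA and psaB were not called. rps14 stood at 11.99, 12.05 and 12.12 in the day 2 pools, against 11.69, 11.67 and 11.77 in the day 0 pools, on the log2 intensity scale, without overlap, and both calls were lost without any 1 of the 3 day 0 pools (adjusted p up to 0.144). In the unit that runs from ndhH to ndhD, ndhA and ndhI were higher on day 10 by 0.23 and 0.21 log2 units, while psaC, transcribed between ndhE and ndhD, fell by 0.34. In the psbB unit all 5 differences on day 10 were negative, of -0.30 to -0.05, and psbH alone was called.

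**Figure D4:**
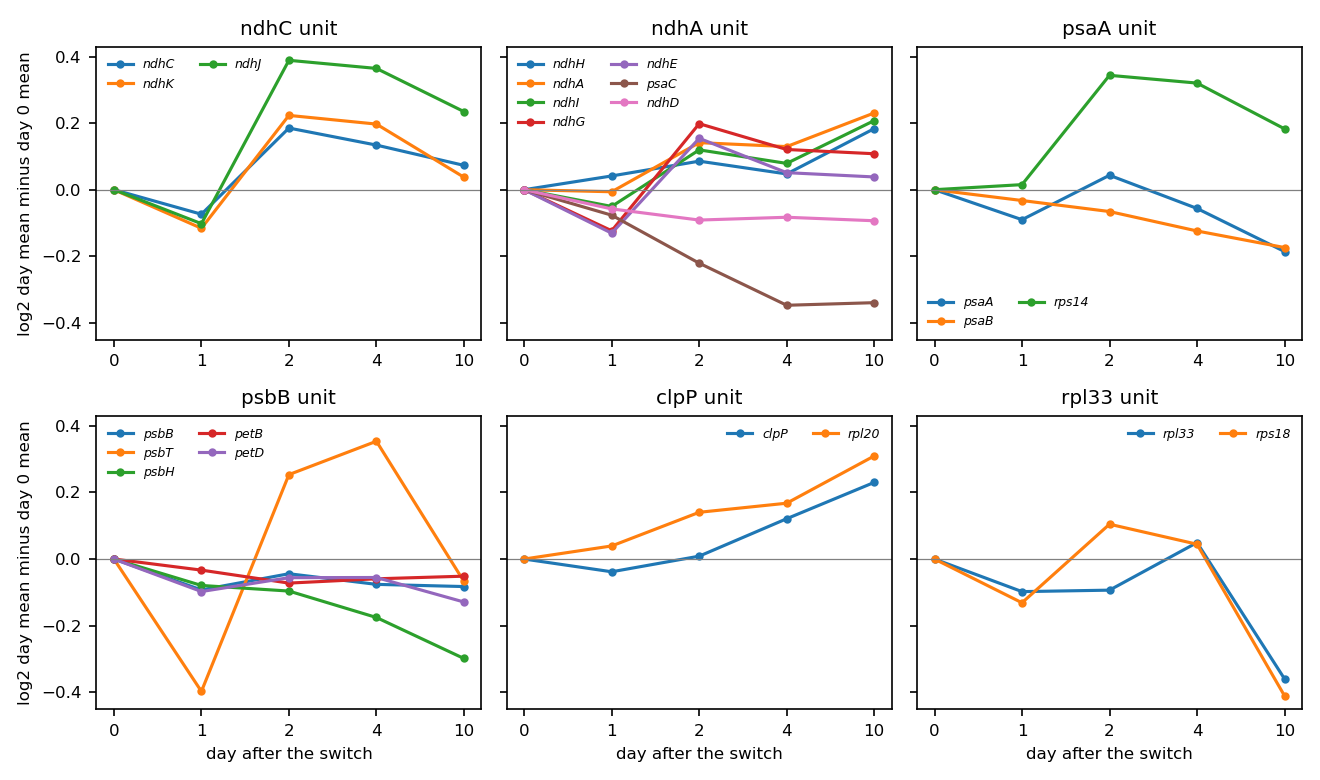
Day means minus the day 0 mean, in log2 units, of the genes measured in 6 transcription units on days 0, 1, 2, 4 and 10. The 3 genes of the ndhC unit lie 0.19 to 0.39 log2 units above their day 0 means on day 2; in the ndhA unit psaC lies 0.34 log2 units below its day 0 mean on day 10 while ndhA lies 0.23 above its own.

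Of the 17 probe sets shared by several plastid genes, 11 had different values, and these gave 6 calls between day 10 and day 0 (54.5%), where 28.8% of all probe sets passed. Higher on day 10 were rps12 on both of its probe sets (0.31 and 0.28 log2 units), rps7 (0.22), ndhB (0.27) and rpl2 (0.22), and lower was the probe set of atpB and atpE (-0.24). ndhB, rps7, rpl2 and part of rps12 lie in the inverted repeat, of which the plastid genome holds identical copies. ycf1 and ycf2, the longest plastid genes, were both called by the F test and on day 4 against day 0, where ycf1 was higher by 0.19 log2 units (limma adjusted p = 0.033) and ycf2 fell by 0.25 (limma adjusted p = 0.011). On day 10 they differed from day 0 by 0.14 and -0.13 and were not called.

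Nuclear genes for the same complexes were set beside these. A 1-gene probe set was matched for 2 of 11 listed photosystem I genes, 2 of 9 of photosystem II, 1 of 6 of the cytochrome b6f complex and ATP synthase, 2 of 12 light-harvesting genes, 1 of 5 of Rubisco and its activase and 2 of 4 NDH genes. None of the 20 nuclear ribosomal protein genes, 6 sigma factors and 13 polymerase-associated proteins was matched. Of the matched genes, ATPC1, the ATP synthase gamma subunit, fell by 1.28 ± 0.061 log2 units on day 10 (SE, adjusted p = 2.0e-08). PSAE1 of photosystem I fell by 1.14 ± 0.108, PSBW of photosystem II by 1.01 ± 0.072 and PSBY by 0.81 ± 0.138. LHCB4.1 and LHCB4.2, light-harvesting proteins of photosystem II, had log2 differences of -0.70 and -1.36, both called, and PSAN of photosystem I, at -0.10, was not called.

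The called differences of these nuclear genes ran from -1.36 to -0.70, while the lowest of a plastid-encoded gene was -0.52 for petN. Within an array, the log2 difference between ATPC1 and atpA changed by -1.44 between day 10 and day 0, that between PSAE1 and psaA by -0.95, that between PSBW and psbA by -0.97 and that between RCA and rbcL by -1.02. For each of the 4 pairs the day 10 pools lay below the day 0 pools, and an exact two-sided permutation test gave p = 0.1, the smallest that 3 pools against 3 allow (0.1 after Benjamini-Hochberg adjustment over the 4 pairs). These pairs were chosen after their values were seen, all with nuclear genes already called lower on day 10, so the test cannot serve as support. PSAN, NDHL and NDHN, which were not called, are in none of the pairs. The nuclear genes of the pairs gave the weaker signals (day 0 means of 7.68 for ATPC1 to 10.18 for PSBW on the log2 scale). The part of signal in the difference was not tested.

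**Figure D5:**
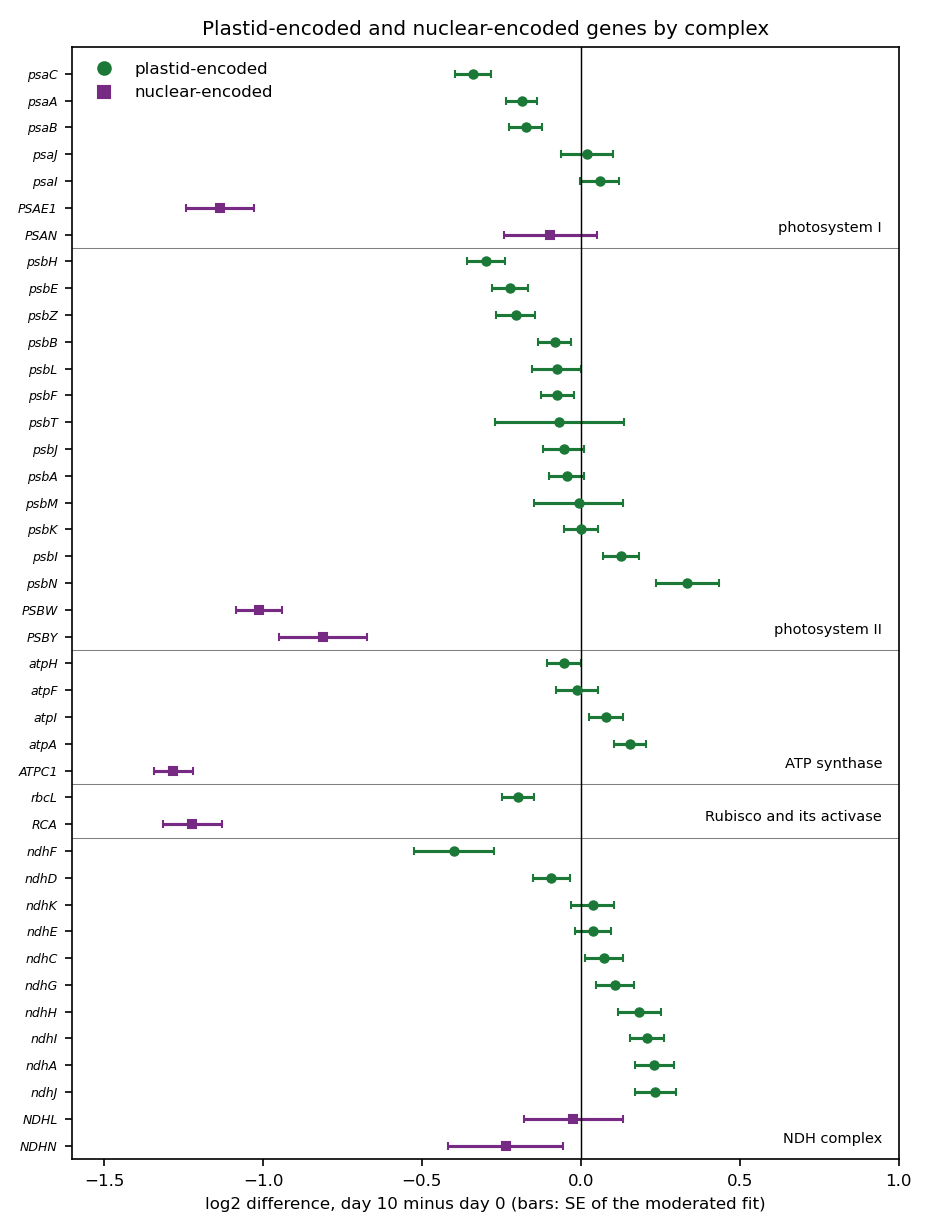
Log2 difference between day 10 and day 0 with its SE from the moderated fit (n = 3 pools per day) for plastid-encoded genes (circles) and the matched nuclear-encoded genes (squares) in 5 groups. ATPC1, PSAE1, PSBW and RCA lie at -1.28, -1.14, -1.01 and -1.22, left of every plastid-encoded gene, and PSAN, NDHL and NDHN lie at -0.10, -0.02 and -0.24.

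RPOTMP, the nuclear gene of a phage-type polymerase that serves mitochondria and plastids, was the single polymerase gene of nuclear origin that could be matched. It stood at 7.31, 7.43 and 7.49 on the log2 intensity scale in the day 0 pools, 6.97, 6.90 and 6.96 on day 1, 6.51, 6.65 and 6.73 on day 2, 6.44, 6.65 and 6.51 on day 4, and 7.15, 7.27 and 7.25 on day 10. The day 1, 2 and 4 pools all lay below the day 0 pools. The log2 differences from day 0 were -0.46, -0.78 and -0.87 on days 1, 2 and 4, all called, and -0.19 on day 10, not called. rpoB, rpoC1, rpoC2 and accD were called in none of the comparisons with day 0, and rpoB and accD were called by the F test. A link between RPOTMP and these genes was not tested, and the other listed phage-type polymerases were not matched.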

How the data were processed

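Hypocotyl RNA was measured on 15 arrays, 3 pools of 8 plants on each of 5 days. The values are normalised intensity in 1 table deposited by the authors; RMA and Partek are named per the submitters' processing notes, with no version or role, and no source used here gives the annotation build. The intensity values are linear and positive, so log2 was taken with no pseudocount or further scaling. Array medians ran from 84.1 to 90.6. Of 38408 probe sets, 16722 are annotated to 1 gene, 759 to several and 20927 to none; 16574 matched the reference gene table (TAIR10.1), used for names and gene order only.

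limma 3.58.1 in R 4.3.3 fitted 1 mean per day over all arrays (10 residual degrees of freedom), and the tests were checked on simulated data. P-values are two-sided, with the Benjamini-Hochberg adjustment across the whole table and calls at an adjusted p below 0.05. Figures used matplotlib 3.10.9 in Python 3.11.15.

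The genes and lists were chosen with earlier results of these data known. Given singly are, in each role group, the 3 genes with the smallest F-test p and the 1 with the largest, with psbA, rbcL, accD, clpP, matK, ycf1, ycf2 and the rpo genes always, and in each nuclear list the 3 with the smallest F-test p. Genes outside this rule (psaB, psbE, psbT, ndhA, ndhC, ndhE, ndhF, ndhH, ndhI, rps14, rps15, rps16, rpl32 and others given in passing) were chosen after their values were seen. Transcription units follow general knowledge of plastid genomes. Alternatives were other scalings, the replicate number as a block, fewer arrays, a filter on dim probe sets, a trended robust prior, shared probe sets and leaving out each array. No gene had several probe sets, so the alternative of another probe set changed nothing.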

Additional observations from a re-analysis of the deposited data

How the results depend on the processing

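Directions of the 59 calls held in every setting, and the number of calls did not. Against day 0 on day 2, where 10 genes were called, the count was 19 with arrays centred on their medians, 6 after cyclic loess, 6 with the replicate number as a block, 22 with a trended robust prior and 4 with only the 6 arrays compared. On day 4, where 6 were called, it was 21 with centring, 10 without dim probe sets, 19 with the trended prior, 3 with 6 arrays, 4 with the block and 10 with shared probe sets added. On day 10, where 22 were called, it was 6 with 6 arrays, 31 with the trended prior and 19 with the block. On day 1 the trended prior gave 1 call in place of 0. Between days 2 and 1 (13 calls) it was 20 with centring, 22 without dim probe sets, 27 with the trended prior and 5 with 6 arrays. Between days 4 and 2 (1 call) it was 0 with centring, loess, the block or 6 arrays, 3 without dim probe sets and 6 with the trended prior. Between days 10 and 4 (7 calls) it was 13 with the trended prior, 1 with 6 arrays and 11 with shared probe sets. The F test's 33 calls became 24 with the block. The cause of these shifts was not tested, except that 6 arrays leave fewer pools to estimate the spread. Shares of all probe sets called under these other settings are not given here. The counts thus show how calls depend on the setting and cannot be set against a background.

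Leaving out each array in turn gave 22 to 27 calls by the F test, 0 to 0 on day 1, 3 to 10 on day 2, 2 to 7 on day 4, 14 to 22 on day 10, 10 to 14 between days 2 and 1, 0 to 3 between days 4 and 2 and 3 to 8 between days 10 and 4. Samples with the same replicate number showed little shared deviation: of 30 same-number pairs, 2 correlated over 0.1, and 4 of 15 arrays were most like their own number. With 3 pools a day this cannot settle whether the number marks a shared batch, and the labels do not say. Centring moved the median of all probe sets by at most 0.08 log2 units.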

Other observations

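The pools of a day differed together across the plastid-encoded genes. Replicate 1 of day 10 was the highest of its day for 46 of the 63 genes, replicate 3 of day 2 for 49, replicate 3 of day 4 for 43 and replicate 2 of day 0 for 43. Their labels give no property that sets these pools apart.

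Mitochondrial genes, also bright on these arrays, were measured beside those of the plastid. Of 15 mitochondrial genes picked by symbol (nad, cox, ccb and matR, chosen after the data were seen), the F test called 8, where it called 41.5% of all probe sets, and the range of their day means had a median of 0.217 log2 units, at a median log2 intensity of 12.7. On day 10, 5 of the 15 were higher than on day 0 and 0 lower, where 14.8% of all probe sets were higher and 14% lower, with a median difference of 0.13. matR, the mitochondrial intron maturase, stood at 11.74, 11.51 and 11.64 on the log2 intensity scale in the day 10 pools, against 11.23, 11.28 and 11.15 in the day 0 pools, without overlap. The difference was 0.41 ± 0.090 (SE, limma adjusted p = 0.0044). nad6, a complex I subunit, was higher by 0.36 ± 0.072 (limma adjusted p = 0.0023).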
